A study of Drosophila melanogaster with 12 samples.

Results

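The comparison between 14 and 25 °C was analysed in S2R+ cells, which descend from embryonic tissue of Drosophila melanogaster and grow in culture. Its members are the 3 arrays titled 14 °C and the 3 arrays titled 25 °C, chosen by their titles alone, which makes 6 of the 12 arrays of the series. The other 6 arrays come from 11 and 30 °C, with 3 arrays each. Cultures were plated, shifted to their temperature a day later and kept there for 24 h before total RNA was extracted, labelled with Cy3 and hybridised to an Agilent oligonucleotide array. The dishes received 3500000 cells for 14 °C and 1700000 for 25 °C (4500000 for 11 °C and 1500000 for 30 °C), since the study matched plated numbers to the later temperature. Plated number therefore differed together with temperature. All groups are the same untreated line, and the methods describe the 3 replicates per temperature as biological. The study regarded 14 °C as the lower end of the range these cells tolerate readily, and 25 °C is their usual culture temperature.

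Fruit flies and their cells are ectothermic, so the temperature of the cell follows that of the surroundings and cooling slows most reactions. Membranes become less fluid in the cold, and cells in culture pass through the division cycle more slowly. Heat shock proteins are chaperones whose genes are best known for strong transcription at high temperature. S2R+ cells resemble hemocytes, the phagocytic blood cells of the fly, and are a single transformed line without the tissue context of an animal.

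Markers of hemocytes differed widely in level in this line. Of 12 hemocyte markers, the GATA factor gene srp and its partner gene ush were bright at both temperatures (mean log2 signals of 12.4 at 14 °C and 13.0 at 25 °C for srp). NimC1 and Hml, which mark circulating plasmatocytes, were at or near background on all arrays of both temperatures, with mean log2 signals of 2.49 and 2.75 for NimC1. The receptor gene eater, another of the 12, was detected on every array of both temperatures (means of 5.58 at 14 °C and 7.85 at 25 °C). Levels of the remaining markers are not given here. Of markers of other cell types, the muscle gene Mhc was near background, whereas the neuronal gene elav and the germ line genes aub and stau were detected at both temperatures. The arrays measure RNA of the whole dish, and fewer cells of a type cannot be told apart from less RNA per cell.

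On each array 43603 gene spots were measured, of which 58.7% to 61.1% were well above background at 14 °C and 55.5% to 58.2% at 25 °C. No gene spot was saturated. Across features, Pearson's r was 0.992 to 0.996 within 14 °C, 0.984 to 0.996 within 25 °C and 0.968 to 0.977 between both, which is a description across genes and not across independent samples. Replicate 1 at 25 °C stood apart, with 1375 features more than 2-fold away from the mean of the other 2 arrays at its temperature, against 263 to 685 for the other 5 arrays. Slide 1 held replicate 1 of all temperatures. Replicates 2 and 3 at 14 °C lay on another slide than replicates 2 and 3 at 25 °C, so that for these replicates slide and temperature cannot be told apart. Results that rest on replicate 1 at 25 °C are given with and without it.

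Genes were called in both directions between 14 and 25 °C. The rises included some genes of prolyl hydroxylation, 2 of 10 genes for lipases and lipid droplets and 4 of 21 adhesion genes. The falls included most genes of DNA replication, many genes of mitosis and several heat shock genes. Of 15114 features tested, 805 were called higher (5.33%) and 749 lower (4.96%) at 14 °C, which is 10.3% in either direction. A feature was called at a change of at least 2-fold with a limma adjusted p under 0.01 (Benjamini-Hochberg over all features), and "rose" and "fell" are used below only for called genes.

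Of these features, 9180 were genes of the RefSeq table, with 487 rises and 512 falls. All 487 and 512 genes had no overlap between the 3 arrays at 14 °C and the 3 arrays at 25 °C, and 56.2% of all 9180 genes tested had none either. Detection on each of the 6 arrays held for 261 of the rising and 447 of the falling genes. Among these the size of the log2 change was between 2 and 3 for 30 rises and 15 falls, and at least 3 for 5 rises and 2 falls. Of the features called, 5 higher and 24 lower ones were well above background on no array of either temperature.

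The balance between rises and falls depended on the scaling of the arrays. After scaling by the median, which the study used, 51.8% of the calls were higher, and the median change of all features was -0.19 on the log2 scale. After scaling on the 75th percentile the share was 73.9% (1116 higher, 395 lower; median change 0.04), on spike-in controls 87.0% (1403 and 209; 0.23) and by quantiles 64.0% (906 and 509; -0.03). With slide as a block it was 36.3% (637 and 1116), and without replicate 1 at 25 °C it was 58.8% (943 and 661). No feature was called in opposite directions by any of these fits. For many gene groups, the distance from this median is given beside the change.

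**Figure D1:**
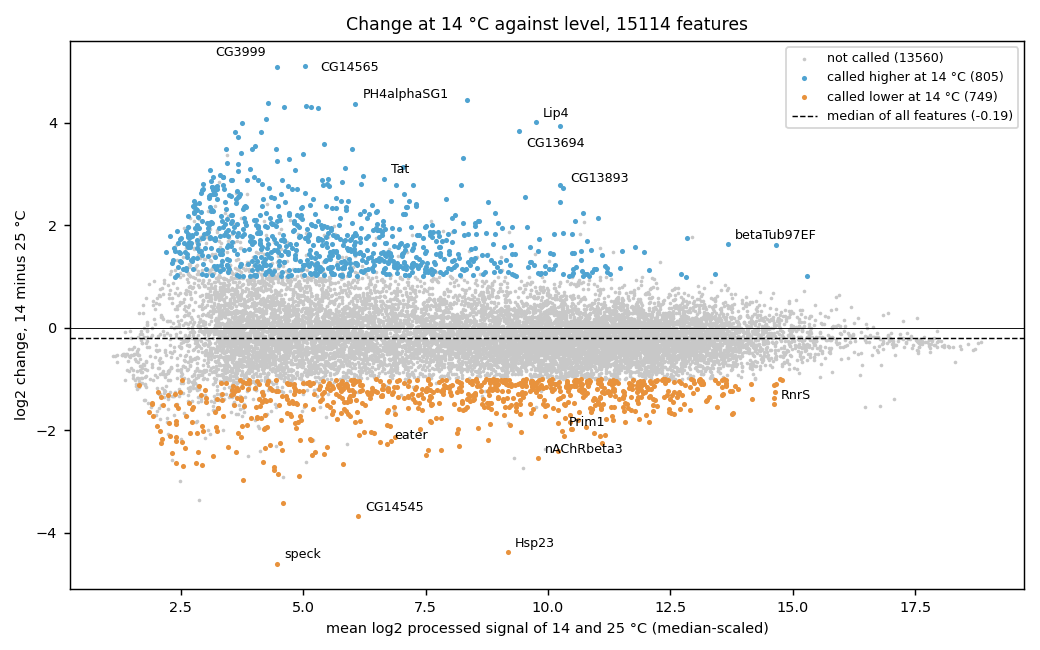
Log2 change (14 minus 25 °C, y axis) of 15114 features against their mean log2 processed signal at both temperatures (x axis), each feature a point, with 805 called higher in blue and 749 called lower in orange. The dashed line is the median of all features at -0.19, and the labels name a few of the genes described in the text.

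On slide 1, which held an array of each temperature, 804 of the 805 features called higher and all 749 called lower moved in the direction of the call, 659 and 664 of them by at least 2-fold. In replicates 2 and 3 the counts were 803 and 747, with 772 and 629 by at least 2-fold. These arrays also made the calls, so the counts describe how evenly the slides contributed.

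Among the gene groups examined, those of DNA replication had the highest share of falls. Before S phase, the origin recognition complex and the loading factors Cdc6 and Dup place the MCM helicase on DNA, and Cdc45 and the GINS complex (Sld5, Psf1, Psf2, Psf3) then activate it. Of 20 genes in this group, 17 fell and none rose. All 20 had lower values on all arrays at 14 °C than on any array at 25 °C, whereas 56.2% of all RefSeq genes tested had no overlap. The median log2 change of the 20 genes was -1.38, or -1.19 relative to all features, and between -1.19 and -0.91 relative to all features over the scalings. The 3 genes without a call were Cdc6 (-0.99), Psf2 (-0.65) and Psf3 (-0.54).

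The MCM gene Mcm7 had log2 signals of 8.01, 7.83 and 7.82 at 14 °C and of 9.91, 9.73 and 9.65 at 25 °C. It fell 3.67-fold (log2 change -1.88 ± 0.19 SE, adjusted p = 6.31e-05). The GINS gene Sld5 had 11.15, 11.20 and 11.08 against 13.01, 13.01 and 12.95 and fell 3.59-fold (-1.84 ± 0.17, adjusted p = 2.72e-05). In both genes the gap between temperatures was many times the range within each of them.

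For Orc6, a subunit of the origin recognition complex, the signals were 9.43, 9.54 and 9.62 at 14 °C and 11.56, 11.35 and 11.19 at 25 °C, a 3.57-fold fall. The other MCM genes fell by between 1.36 (Mcm6) and 1.83 (Mcm5) on the log2 scale. The calls of Mcm7, Sld5, Orc6, Mcm5 and Mcm3 held in every alternative processing that was tried.

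The enzymes that copy DNA and supply its building blocks showed the same direction. Of 21 genes for polymerases, primase, the sliding clamp and its loader, the single-strand binding protein and nucleotide synthesis, 17 fell and none rose, with a median log2 change of -1.14 (-0.95 relative to all features). Prim1, the catalytic primase subunit, had log2 signals of 9.22, 9.33 and 9.27 at 14 °C and 11.26, 11.39 and 11.24 at 25 °C. It fell 4.06-fold (-2.02 ± 0.25 SE, adjusted p = 0.00016), the most of this group.

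RnrS, the small subunit of ribonucleotide reductase, had 14.00, 13.79 and 13.80 at 14 °C and 15.41, 15.36 and 15.31 at 25 °C. It fell 2.82-fold, and the thymidylate synthase gene Ts fell 2.80-fold. PCNA, the sliding clamp, fell by 1.38 on the log2 scale, from 15.31 to 13.93 in the mean. The genes without a call were RfC4 (-0.99), PolD3 (-0.96), RPA1 (-0.70) and RfC3 (-0.55).

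Of the regulators that drive the cycle, a smaller share was called. Of 22 genes for cyclins, their kinases and switches, 7 fell and none rose, with a median of -0.83 (-0.65 relative to all features). The falls were those of Rbf2 and Rbf, which encode retinoblastoma family proteins, of the Cdk inhibitor gene dap, of the APC/C activator gene fzy, of Cdk4 and Cdk2, and of the Cdc25 phosphatase gene twe. Cyclin genes had no call, with log2 changes of -0.97 for CycE, -0.76 for CycA, -0.55 for CycB and -0.33 for CycD. The S phase activator gene E2f1 had 7.65, 7.66 and 7.89 at 14 °C and 8.06, 7.63 and 7.61 at 25 °C, which overlap, with a change of -0.03. Without replicate 1 at 25 °C Cdk4 was under the 2-fold threshold (-0.94), and dap, fzy, Cdk4 and Rbf were under it after scaling on the 75th percentile (-0.95, -0.90, -0.88 and -0.87).

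Among 27 genes for mitotic kinases, the kinetochore and the spindle, 9 fell and none rose, with a median of -0.89 (-0.70 relative to all features). The falls were led by kinetochore and checkpoint genes. The kinetochore gene Spc25 fell 2.77-fold, from 12.44, 12.71 and 12.57 to 11.15, 11.11 and 11.04, and the spindle checkpoint gene mad2 fell 2.75-fold, from 12.30 on each array at 25 °C to 10.76, 10.89 and 10.87. Mis12 fell 2.55-fold, and cid, the histone variant of the centromere, fell 2.51-fold. Further falls were those of Ndc80, Nuf2, tum, aurB and Incenp. The mitotic kinase genes polo (-0.60) and aurA (-0.61) and the kinesin gene Klp61F (-0.67) had no call. Ndc80 lost its call without replicate 1 at 14 °C, replicate 3 at 14 °C or replicate 2 at 25 °C (-1.06, -1.03 and -1.05, adjusted p = 0.0115, 0.0143 and 0.012).

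Chaperones that assemble nucleosomes on new DNA also fell. Asf1 carries histones H3 and H4, and the CAF-1 complex places them behind the replication fork. The gene asf1 had 12.55 on each array at 14 °C and 13.94, 14.01 and 13.91 at 25 °C, and fell 2.64-fold (-1.40 ± 0.13 SE, adjusted p = 3.20e-05). The 3 genes of the CAF-1 subunits fell as well, between 2.17-fold and 2.54-fold. Of the 25 histone and chromatin genes, 5 fell, the remaining fall being that of the variant gene His2Av (-1.10), and 1 rose, the deacetylase gene HDAC11. The nucleosome assembly gene Nap1 (-0.13) and the deacetylase gene HDAC1 (0.15) were not called.

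**Figure D2:**
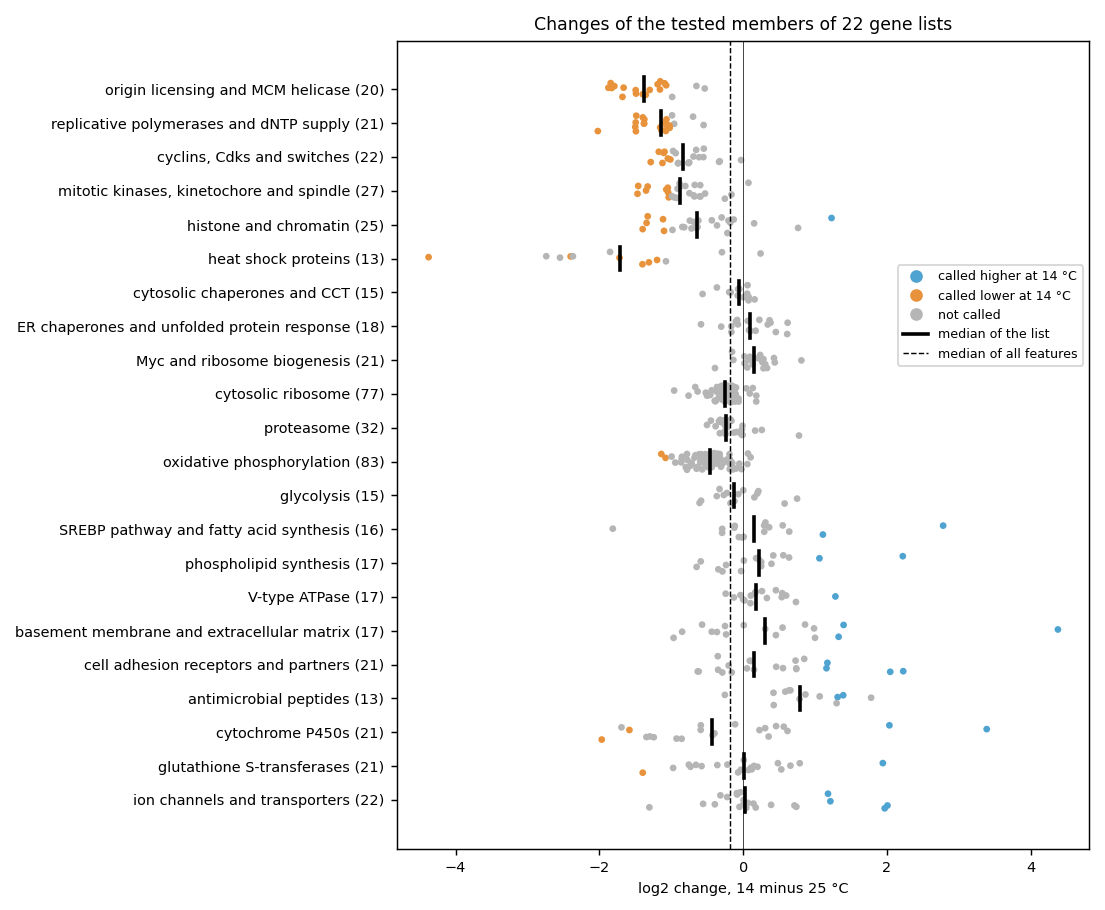
Log2 change (14 minus 25 °C, x axis) of every tested member of 22 gene groups (rows, number of members in brackets), with called rises in blue, called falls in orange, group medians as black bars and the median of all features as a dashed line. The 2 replication groups lie entirely below 0, with medians of -1.38 and -1.14, whereas most other groups are centred near the dashed line.

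Several heat shock genes fell at 14 °C, by amounts that differed widely between members and that rested in part on replicate 1 at 25 °C. Of 13 genes, 6 fell and none rose, with a median log2 change of -1.72 (-1.53 relative to all features), and of -1.27 without that array. Hsp23, Hsp22, Hsp27, Hsp67Ba and Hsp67Bc, which fell, are genes of the small heat shock proteins, which hold unfolding proteins in solution. The sixth was Hsp68, an inducible member of the Hsp70 family.

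Hsp23 had log2 signals of 7.96, 6.47 and 6.53 at 14 °C and of 13.44, 10.32 and 10.33 at 25 °C. Replicate 1 was the highest array at each temperature, and the groups did not overlap. The fall was 20.8-fold (-4.38 ± 0.76 SE, adjusted p = 0.0014), the largest among genes detected on all 6 arrays, and without replicate 1 at 25 °C it was -3.34 (adjusted p = 0.000925). In a fit of the 6 arrays at 14 and 25 °C alone Hsp23 was not called (adjusted p = 0.0142), nor were Hsp22, Hsp27 and Hsp68 (adjusted p = 0.0315, 0.0157 and 0.0197).

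Hsp22, whose protein acts in mitochondria, had 9.09, 9.13 and 8.81 at 14 °C and 12.99, 10.66 and 10.58 at 25 °C, a 5.28-fold fall. Without replicate 1 at 25 °C its change was -1.61 (adjusted p = 0.00127), and the call was lost without any of the arrays at 14 °C (-2.46 to -2.30, adjusted p = 0.0157 to 0.0221). Hsp27 fell 3.3-fold, and by 1.28 on the log2 scale without replicate 1 at 25 °C, while its call was lost without replicate 3 at 14 °C (-1.66, adjusted p = 0.0113). Hsp67Ba was even between the arrays at 25 °C, with 7.74, 7.93 and 7.96 against 6.62, 6.59 and 6.82 at 14 °C, and fell by 1.20 with that array and by 1.27 without it. Hsp68 had 12.94, 11.84 and 11.87 at 25 °C and 10.96, 10.92 and 10.84 at 14 °C. It fell 2.48-fold, but by less than 2-fold without replicate 1 at 25 °C (-0.95, adjusted p = 0.00744), and its call was lost without any of the arrays at 14 °C (-1.34 to -1.28, adjusted p = 0.0155 to 0.0207).

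The genes of the inducible chaperone Hsp70 were not called, although every array at 14 °C lay below every array at 25 °C. Hsp70Aa had 8.73, 7.92 and 7.73 at 14 °C and 12.91, 9.81 and 9.87 at 25 °C (-2.74 ± 0.74 SE, adjusted p = 0.0152). Hsp70Ba, Hsp70Bb and Hsp70Bc had log2 changes of -2.55, -2.37 and -1.85 (adjusted p = 0.0129, 0.0129 and 0.0256). With the replicate number as a block all 4 were called, with adjusted p of 0.00101, 0.00614, 0.00248 and 0.00965, and without replicate 1 at 25 °C Hsp70Ba (-1.53) and Hsp70Bb (-1.46) were. The Hsp70 genes are near-identical copies, so their probes may share signal. Hsp26 had 13.21 on replicate 1 and 10.39 and 10.50 on the other arrays at 25 °C, against 10.47, 10.23 and 10.18 at 14 °C (-1.07 ± 0.60, adjusted p = 0.19), and its groups overlapped.

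**Figure D3:**
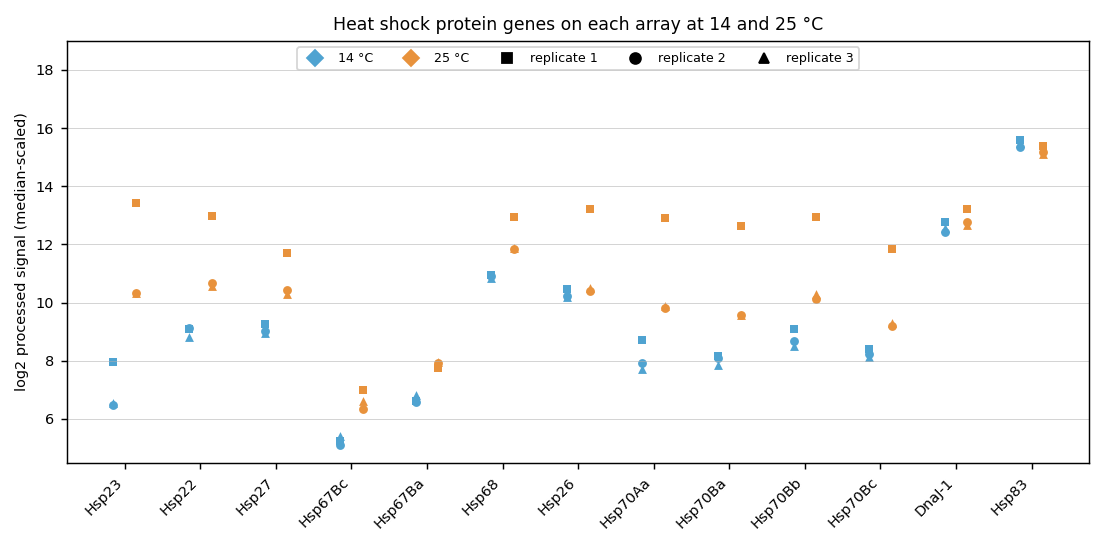
Log2 processed signal (y axis, median-scaled) of 13 heat shock genes on each of the 3 arrays at 14 °C (blue) and 25 °C (orange), with squares, circles and triangles for replicates 1, 2 and 3. The square of 25 °C stands far above the other arrays for Hsp23, Hsp22, Hsp26 and the Hsp70 genes, and not for Hsp67Ba or Hsp83.

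Chaperones that work at all temperatures had no call. Hsp83, the fly Hsp90, had 15.59, 15.33 and 15.47 at 14 °C and 15.39, 15.17 and 15.12 at 25 °C (0.24 ± 0.18, adjusted p = 0.324). Of 15 other cytosolic chaperone genes, among them those of the chaperonin that folds actin and tubulin, none was called (2 at an unadjusted p under 0.05), with a median of -0.06 (0.13 relative to all features), and of 18 genes for chaperones and stress sensors of the endoplasmic reticulum none was called (8 at an unadjusted p under 0.05), with a median of 0.09 (0.28 relative to all features). Their most changed members were Herp (0.62) and Ero1L (0.61) on the upper and l(2)efl (-0.59) on the lower side.

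Among the large rises of genes detected on all 6 arrays was that of PH4alphaSG1, an alpha subunit of prolyl 4-hydroxylase, the enzyme that hydroxylates prolines of collagen. It had log2 signals of 8.52, 8.19 and 8.04 at 14 °C and 4.17, 4.37 and 3.08 at 25 °C. Since the signal at 25 °C came close to the floor set by the dimmest spots well above background, the rise is given as at least 14.3-fold (adjusted p = 6.04e-06). The related gene PH4alphaNE1 was well above background on the 3 arrays at 14 °C only, and at least 8.22-fold higher there. PH4alphaEFB, a further alpha subunit gene, was not called (-0.44).

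Lip4, a member of the lipase family, had 11.61, 11.74 and 11.91 at 14 °C and 7.94, 7.61 and 7.67 at 25 °C. It rose 16.1-fold (log2 change 4.01 ± 0.15 SE, adjusted p = 5.02e-07). CG13694, a gene without a name, had 11.41, 11.26 and 11.36 against 7.37, 7.5 and 7.62 and rose 14.4-fold. In both genes the 3 arrays of a temperature lay close together and far from those of the other.

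CG10993 rose 9.90-fold, from 6.81, 6.66 and 6.39 to 9.87, 9.99 and 9.93, and Dred rose 8.80-fold, from 5.66, 5.30 and 5.47 to 8.68, 8.47 and 8.69. Tat, which encodes tyrosine aminotransferase, the first enzyme of tyrosine breakdown, had 8.06, 8.23 and 8.01 at 14 °C and 5.43, 4.97 and 5.15 at 25 °C, a 7.53-fold rise. The other genes among the 15 largest rises rose between 5.49-fold, as a lower bound for CG13315, and 6.97-fold for the alkaline phosphatase gene Alp11. They included Anp (5.73-fold), the gene of the antibacterial peptide andropin, the mucin gene Muc30E (5.55-fold), the glutathione S-transferase gene GstD4 (5.56-fold) and SmydA-5 (5.77-fold), of the SET and MYND domain family. CG6142 (6.87-fold), CG13893 (6.67-fold) and CG6231 (5.91-fold) completed the 15. For CG6231 replicate 1 was highest at each temperature, with 11.23 against 10.65 and 10.54 at 14 °C and 8.98 against 7.90 and 7.85 at 25 °C. Of these 15 genes, all but SmydA-5 and CG13315 kept their call in every alternative.

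**Figure D4:**
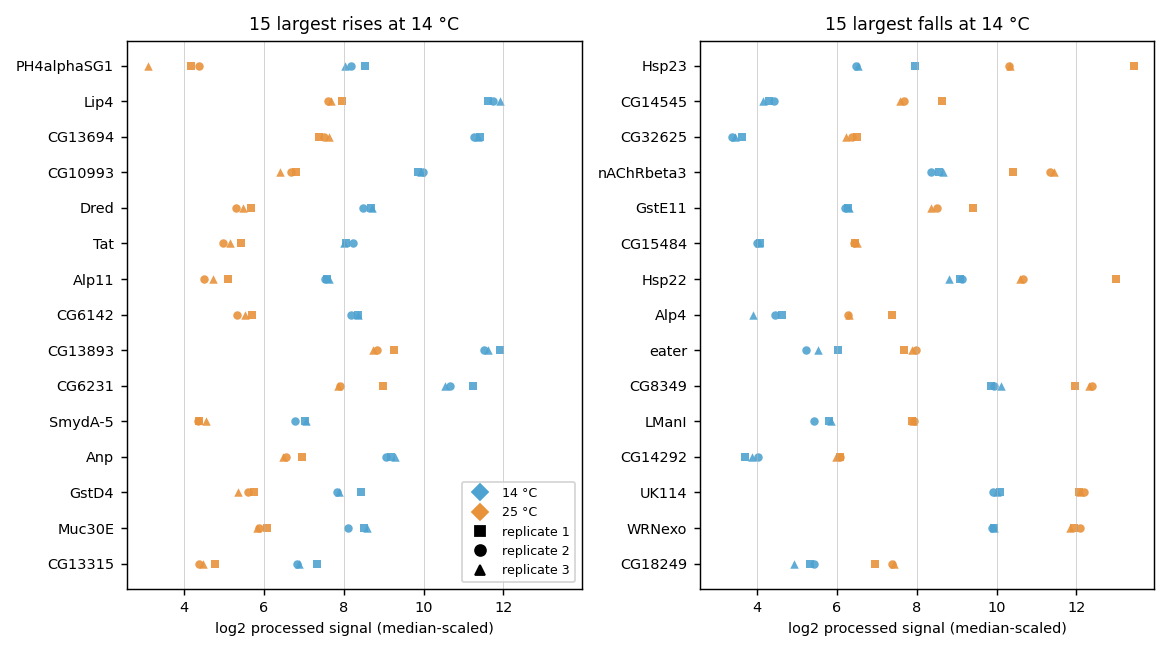
Log2 processed signal (x axis, median-scaled) on the 3 arrays at 14 °C (blue) and the 3 at 25 °C (orange) for the 15 genes with the largest rises (left) and the 15 with the largest falls (right) among genes detected on all 6 arrays, with a marker shape for each replicate. The groups are separate in every row, and replicate 1 at 25 °C lies apart from the others for Hsp23, Hsp22, CG14545, GstE11, Alp4 and nAChRbeta3, among others.

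The falls after Hsp23 began with CG14545, which had 4.29, 4.42 and 4.14 at 14 °C and 8.63, 7.67 and 7.59 at 25 °C and fell 12.8-fold (-3.68 ± 0.30 SE, adjusted p = 1.43e-05). CG32625 fell 7.43-fold to signals of 3.61, 3.38 and 3.45, near the dim end of the arrays. The gene nAChRbeta3, for a subunit of the nicotinic acetylcholine receptor, had 8.56, 8.35 and 8.65 at 14 °C and 10.42, 11.34 and 11.43 at 25 °C, where replicate 1 was the lowest, and fell 5.84-fold.

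GstE11, of the glutathione S-transferases, fell 5.61-fold, from 9.41, 8.51 and 8.35 to 6.28, 6.21 and 6.31, and the alkaline phosphatase gene Alp4 fell 5.04-fold. UK114 had 10.08, 9.92 and 10.01 at 14 °C and 12.07, 12.18 and 12.09 at 25 °C, a 4.32-fold fall. WRNexo, an exonuclease related to the Werner syndrome protein, fell 4.13-fold, from 11.95, 12.09 and 11.84 to 9.94, 9.88 and 9.92. In UK114 and WRNexo the arrays of a temperature lay close to each other. The remaining genes among the 15 largest falls were CG15484 (5.37-fold), CG8349 (4.78-fold), the lysosomal mannosidase gene LManI (4.64-fold), CG14292 (4.54-fold), CG18249 (4.10-fold) and eater (4.82-fold).

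Eater, a receptor with which hemocytes bind bacteria, had 6.02, 5.22 and 5.52 at 14 °C and 7.69, 7.99 and 7.87 at 25 °C (-2.27 ± 0.35 SE, adjusted p = 0.000659). With slide as a block its change was -1.74 (adjusted p = 0.0105), which is not past the threshold. Among 15 tested genes for receptors and opsonins of hemocytes it was the only fall, and the complement-like genes Tep1 (2.84-fold) and Tep2 (2.13-fold) rose. Tep2 fell under the fold threshold without replicate 1 at 14 °C or replicate 3 at 25 °C (0.97 and 0.99). The engulfment receptor gene drpr (0.50) and the scavenger receptor genes crq (-0.42) and Sr-CI (0.18) were not called.

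Some genes were measured above background at only 1 of the temperatures. Among the rises, 127 RefSeq genes passed the background threshold on all 3 arrays at 14 °C and on none at 25 °C, and among the falls 10 had the opposite pattern. Folds of these genes are lower bounds, set against the floor. CG14565 was at least 14.7-fold higher at 14 °C, with 7.78, 7.51 and 7.53 there. The esterase gene alpha-Est8 was at least 11.4-fold higher (6.98, 7.48 and 7.25), and CG3999, which the study lists under amino acid catabolism, was at least 9.72-fold higher (7.5, 6.87 and 6.66). All signals at 25 °C were at most 3.60 for these 3 genes. Jhbp15, of the juvenile hormone binding protein family, was at least 5.88-fold higher.

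In the other direction, speck, the gene of an N-acetyltransferase of amines such as dopamine, had 7.85, 6.18 and 6.26 at 25 °C and 2.39, 2.34 and 1.75 at 14 °C, and was at least 12-fold lower at 14 °C. CG6790 was at least 5.0-fold lower, with 5.50, 5.46 and 5.52 at 25 °C. Then came stops (at least 4.23-fold), which is known from photoreceptors, CG13912 (at least 3.17-fold) and CG11843 (at least 3.08-fold). Every one of these 10 genes except CG14565 lost its call under the normexp background correction.

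Calls among genes that set the lipid composition of membranes were all rises, and 5.33% of all features were called higher. Of 16 genes of fatty acid synthesis and its regulator SREBP, FASN2 and Desat2 rose. FASN2, a fatty acid synthase gene, was not well above background at 25 °C and was at least 5.08-fold higher at 14 °C, with 6.21, 5.99 and 6.06 against 3.65, 2.69 and 3.60. The desaturase gene Desat2 had 7.04, 6.39 and 6.75 against 5.76, 5.69 and 5.42 and rose 2.15-fold, but by less than 2-fold without replicate 1 at 14 °C (0.95, adjusted p = 0.00727). Desat1, the main desaturase, overlapped between the temperatures (12.79, 12.49 and 12.50 against 12.72, 12.77 and 12.64; -0.12). FASN1 (0.55), ACC (0.31) and SREBP (0.29) had no call.

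Of 17 genes of phospholipid synthesis, Pcyt2 and Agpat2 rose, with a median of the group of 0.22 (0.41 relative to all features). Pcyt2 encodes an enzyme of phosphatidylethanolamine synthesis and was at least 4.10-fold higher, with 6.21, 6.25 and 6.61 at 14 °C and 4.88, 3.41 and 4.13 at 25 °C. Agpat2, an acyltransferase of phosphatidic acid synthesis, rose 2.08-fold, from 9.80, 9.16 and 8.97 to 10.45, 10.53 and 10.12. Its call was lost in several alternatives, among them without replicate 1 (1.01, adjusted p = 0.0105) or replicate 2 (0.98) at 14 °C, and without replicate 2 (0.98) or replicate 3 (0.89) at 25 °C. Of 10 tested genes for lipases and lipid droplets, Lip4 and the lipase gene mag rose, mag at least 1.80-fold, while the droplet lipase gene bmm (0.63) and Hsl (-0.21) were not called. Most of this group pointed downward, with 7 of the 10 genes below 0 and a median of -0.34 (-0.15 relative to all features). The study's list of lipid metabolism had 17 tested genes, with 4 rises, those of hll (2.51-fold), Acsf3 (2.36-fold), Desat2 and CG31689 (2.08-fold), and no falls. Without replicate 3 at 25 °C CG31689 was under the fold threshold (0.98).

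Tubulins were split. Of 9 tested genes, betaTub97EF and alphaTub67C rose, and the others had no call. The gene betaTub97EF had 14.72, 14.33 and 14.41 at 14 °C and 13.22, 12.68 and 12.65 at 25 °C, and rose 3.11-fold (1.64 ± 0.20 SE, adjusted p = 0.000143) in every alternative. The transcript of alphaTub67C, a maternal alpha-tubulin, was not well above background at 25 °C and was at least 3.04-fold higher at 14 °C, without a call in a fit of the 6 arrays alone (adjusted p = 0.0153). The main genes betaTub56D (-0.73) and alphaTub84B (-0.66) pointed downward after median scaling without a call. Of 22 genes of the actin cytoskeleton, Gel, which encodes the actin-severing protein gelsolin, fell 2.95-fold and no other was called. It had 9.76, 8.93 and 9.28 at 14 °C and 10.52, 11.06 and 11.08 at 25 °C, and with slide as a block it fell just under the fold threshold (-0.98, adjusted p = 0.00896).

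Adhesion and matrix genes with a call all rose, beside 5.33% of all features called higher. Among 21 adhesion genes, 4 rose, with a group median of 0.15 (0.34 relative to all features). The integrin alpha gene scb was at least 3.80-fold higher, with 8.51, 7.92 and 8.06 against 6.61, 5.64 and 5.57, and the integrin beta gene Itgbn rose 2.25-fold, from 6.70, 6.30 and 6.38 to 7.62, 7.69 and 7.58. The main integrin beta gene mys (-0.35) and the alpha genes mew (0.05) and if (0.55) were not called. The adhesion gene Fas3 was at least 2.91-fold higher, and Sema1a, a transmembrane semaphorin, at least 1.16-fold. On slide 1 Fas3 differed by 0.72 and in replicates 2 and 3 by 2.71, and it was not called with slide as a block (1.57, adjusted p = 0.0261). Sema1a lost its call without replicate 1 at 14 °C (0.91, adjusted p = 0.00953).

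Of 17 matrix genes, PH4alphaSG1, Timp and Ppn rose. Timp, the inhibitor of matrix metalloproteinases, had 7.54, 7.19 and 7.44 at 14 °C and 5.95, 5.99 and 6.05 at 25 °C, a 2.63-fold rise. The extracellular matrix gene Ppn rose 2.51-fold, but was not called in a fit of the 6 arrays alone (adjusted p = 0.0114). The type IV collagen genes vkg (0.55) and Col4a1 (0.30), the metalloproteinase gene Mmp1 (0.86) and the laminin genes LanA (-0.57) and LanB1 (-0.85) had no call. Of 7 tested epithelial markers, the cuticle protein genes Cpr49Ac and Cpr62Bc rose and none fell, with a median of 0.09 (0.28 relative to all features). Cpr49Ac was at least 7.26-fold higher at 14 °C. Cpr62Bc lost its call without replicate 1 (1.27) or 3 (1.25) at 14 °C or replicate 1 (1.23) or 2 (1.22) at 25 °C.

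Transport genes changed in both directions. Of 22 ion channel and transporter genes, 4 rose and none fell, beside 5.33% of all features called higher. The cation-chloride cotransporter gene NKCC had 6.97, 6.89 and 6.38 at 14 °C and 5.46, 4.48 and 4.28 at 25 °C and rose 4.01-fold. The potassium channel gene Irk3 was at least 1.80-fold, the chloride channel gene ClC-a at least 1.43-fold and the calcium release channel gene RyR at least 1.41-fold higher. RyR lost its call without any of the 3 arrays at 14 °C (1.13 to 1.26, adjusted p = 0.0163 to 0.027) and without replicate 2 or 3 at 25 °C (0.91 and 1.14), and ClC-a without replicate 1 or 3 at 14 °C (0.63 and 0.85). The sodium pump gene Atpalpha (-0.56) had no call. Of 17 genes of the V-type ATPase, the proton pump of lysosomes and the plasma membrane, Vha68-1 rose 2.43-fold, from 9.09, 8.91 and 8.95 to 10.35, 10.35 and 10.09, and the others lay between -0.24 (Vha100-2) and 0.73 (Vha68-2).

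Of 13 tested amino acid transporter genes, CG7888 rose and CG13248 and CG16700 fell. CG7888 was at least 9.17-fold higher at 14 °C. It had 7.95, 7.78 and 7.48 there, while the arrays at 25 °C were far apart, at 5.97 on replicate 1 and at 3.09 and 3.70 on the others. Its log2 change was 3.48, and 4.34 without replicate 1 at 25 °C. On slide 1 it was 1.99 and in replicates 2 and 3 it was 4.23, and CG7888 was not called in a fit of the 6 arrays alone (adjusted p = 0.0129). CG16700 was under the fold threshold after scaling on the 75th percentile (-0.87). The sugar transporter gene sut1 fell 2.43-fold.

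Detoxification families had members that rose and members that fell, beside 10.3% of all features called in either direction. Of 21 tested cytochrome P450 genes, Cyp6a8 and Cyp6w1 rose and Cyp4d2 and Cyp12a4 fell. Cyp6a8 was at least 7.82-fold higher, with 7.03, 6.65 and 6.40 at 14 °C and 3.69, 3.05 and 3.20 at 25 °C, and Cyp6w1 at least 2.93-fold. With slide as a block Cyp6w1 was not called (1.82, adjusted p = 0.0213). Cyp4d2 was lower on every array at 14 °C (7.38, 6.91 and 7.24) than at 25 °C (9.59, 9.0 and 8.85), and fell 3.91-fold. Cyp12a4 was at least 1.28-fold lower, and was well above background on 1 array at 25 °C and none at 14 °C. Of 21 glutathione S-transferase genes in the list, GstD2 rose 3.84-fold, from 8.56, 7.85 and 7.86 to 10.20, 10.18 and 9.72, and GstD9 fell 2.63-fold, without a call in a fit of the 6 arrays alone (adjusted p = 0.0111). The abundant member GstD1 was not called (0.48). GstD genes are close paralogs, so signal may be shared between their probes. CG12896, of the peroxiredoxins, fell 2.53-fold, from 12.12, 12.53 and 12.46 to 11.18, 11.04 and 10.86, and none of the other 20 genes in its group was called.

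Called antimicrobial peptide genes were higher at 14 °C, beside 5.33% of all features called higher. Of 13 tested genes in the list, Drs and CecA1 rose and none fell, with a median of 0.78 (0.97 relative to all features, between 0.12 and 0.97 over the scalings). Drs, the gene of the antifungal peptide drosomycin, had 7.86, 8.03 and 8.14 at 14 °C and 6.58, 6.54 and 6.73 at 25 °C, a 2.62-fold rise. CecA1, of the cecropins, had 9.47, 8.81 and 9.10 against 7.37, 8.03 and 8.04 and rose 2.48-fold. With the replicate number as a block CecA1 was not called (adjusted p = 0.0106), nor without replicate 1 (1.14, adjusted p = 0.0241) or 3 (1.33) at 14 °C or replicate 1 (1.09) or 2 (1.42) at 25 °C. Anp, described above, was not in this list, and neither was the drosomycin-like gene Drsl2, which rose 2.62-fold.

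None of 21 genes of Toll and Imd signalling and none of 11 genes of JAK/STAT signalling, the pathways through which flies respond to infection and stress, was called (11 and 3 at an unadjusted p under 0.05). Both groups had a median of -0.23 (-0.04 relative to all features), with 16 and 9 genes below 0. The genes described next point upward and do not stand for their groups. For several of their genes replicate 1 at 25 °C differed from the other arrays. Socs36E, a feedback target of JAK/STAT signalling, had 13.07, 13.16 and 13.03 at 14 °C and 13.89, 11.96 and 11.83 at 25 °C (0.53 ± 0.45 SE, adjusted p = 0.384), and without that array its change was 1.20 (adjusted p = 0.00219). The ligand gene upd3 had 6.54, 6.11 and 6.12 against 7.32, 4.95 and 4.92 (0.53, adjusted p = 0.556), and 1.32 without it (adjusted p = 0.0641).

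The Imd inhibitor gene pirk had 13.09, 12.98 and 12.73 against 12.62, 11.15 and 11.14 (1.29, adjusted p = 0.0169). Pvf2, a ligand of the receptor Pvr, had 10.82, 10.71 and 10.52 against 10.47, 8.86 and 8.81 (1.30, adjusted p = 0.0252). Both were called with the replicate number as a block (adjusted p = 0.00283 and 0.00428) and without replicate 1 at 25 °C (1.79 and 1.85). In all 4 genes replicate 1 was the highest at 25 °C, and in Socs36E and upd3 it exceeded the arrays at 14 °C too.

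Of 17 genes of the Pvr, EGFR and FGF pathways, 12 lay below 0, with a median of -0.21 (-0.02 relative to all features). Only aos, the secreted inhibitor of EGFR, rose (3.09-fold, from 5.96, 4.70 and 4.32 to 6.75, 6.46 and 6.65). With slide as a block it was not called (1.19, adjusted p = 0.0354), nor without replicate 1 (1.56) or 3 (1.61) at 14 °C or replicate 2 (1.48) at 25 °C. Among 6 tested genes of the ETS transcription factor family, Ets96B rose. Ets96B had 9.25, 9.16 and 9.20 at 14 °C and 8.15, 7.51 and 7.34 at 25 °C, a 2.90-fold rise. With slide as a block Ets96B was not called (1.05, adjusted p = 0.0106). The gene ewg, for a transcription factor outside this family, was called higher, but its 3 probes disagreed, with log2 changes from -0.33 to 2.52 around their average of 1.49. Its brightest probe alone was not called and had the opposite sign (-0.33, adjusted p = 0.221).

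In the insulin and hormone group, 2 of 21 genes rose, beside 5.33% of all features called higher. Akh, the adipokinetic hormone that mobilises stored fuel in flies, had 7.59, 7.48 and 7.49 at 14 °C and 5.83, 5.30 and 5.33 at 25 °C and rose 4.09-fold (2.03 ± 0.16 SE, adjusted p = 1.10e-05). The transcription factor gene foxo rose 2.10-fold, but was under the fold threshold without replicate 1 at 14 °C (0.98), replicate 3 at 25 °C (0.91) or with slide as a block (0.95). InR (0.43), Thor (0.59) and Akt (-0.31) were not called. Of 17 genes of the ecdysone response, ImpE3 (2.76-fold) and MsrA (2.67-fold) fell, and the nuclear receptor gene Hr38 was called higher. Its mean at 14 °C (3.45) was under the floor that applied at 25 °C, so no fold is given, and it lost its call with the replicate block (adjusted p = 0.0113), with slide as a block and without any single array of the 6, replicate 1 at 25 °C included (1.66, adjusted p = 0.0185).

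Among 14 apoptosis genes, 2 fell and 2 rose, beside 10.3% of all features called in either direction. The initiator caspase gene Dronc had 10.38, 10.14 and 10.26 at 14 °C and 11.62, 11.23 and 11.17 at 25 °C and fell 2.12-fold, and the gene of its activator Dark fell 2.02-fold. Buffy, a Bcl-2 family gene, was at least 3.87-fold higher at 14 °C, and the caspase gene Damm rose 2.09-fold. Dronc and Dark were under the fold threshold without replicate 1 at 25 °C (-0.94 and -0.76) and after scaling on the 75th percentile (-0.86 and -0.79), Dark was not called without replicate 2 or 3 at 14 °C (-0.97 and -0.98), and Damm was under it without replicate 3 at 25 °C (0.96). The effector caspase genes Drice (-0.27) and Dcp-1 (-0.37) and the death inducers rpr (0.39) and hid (-0.31) had no call.

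Large cellular machines showed almost no calls. Of 77 cytosolic ribosome genes and 32 proteasome genes none was called (24 and 11 at an unadjusted p under 0.05), with medians of -0.25 and -0.24, which are -0.07 and -0.05 relative to all features. Of 83 genes of oxidative phosphorylation, SdhD (2.20-fold) and ND-AGGG (2.12-fold) fell, with a median of -0.46 (-0.27 relative to all features), and of 65 genes of the mitochondrial ribosome mRpS11 (2.03-fold) and mRpL36 (2.01-fold) fell, with a median of -0.34 (-0.15 relative to all features). All 4 were under the fold threshold after scaling on the 75th percentile, with -0.92 for SdhD, -0.86 for ND-AGGG, -0.80 for mRpS11 and -0.78 for mRpL36, as well as on spike-in controls, on probes detected on every array and by quantiles. SdhD was also under it with slide as a block (-0.97), ND-AGGG for its brightest probe (-0.43), mRpS11 without replicate 3 at 14 °C or replicate 1 at 25 °C (both -0.97), and mRpL36 without replicate 3 at 14 °C or replicate 2 at 25 °C (-0.97 and -0.96). None of 15 glycolysis genes (median -0.12, or 0.07 relative to all features), 21 genes of Myc and ribosome biogenesis (0.15, or 0.33), 15 splicing genes (-0.48, or -0.30) and 15 genes of cleavage and polyadenylation (-0.42, or -0.23) was called, and 4, 5, 10 and 9 of them had an unadjusted p under 0.05. The medians of the ribosomes, the proteasome and glycolysis turned positive under other scalings, so that their direction is not determined.

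Of 10 tested genes in a list of cold-response genes of flies, pst rose and Hsp68 fell, beside 10.3% of all features called. The study identified pst as higher in the cool from its own data, these arrays among them. Its call here is therefore not independent of how it was chosen. The gene pst, whose regulatory region the study examined, had 11.57, 11.16 and 11.29 at 14 °C and 10.60, 10.23 and 10.13 at 25 °C. The groups did not overlap, and the rise was 2.03-fold (1.02 ± 0.20 SE, adjusted p = 0.00261), so close to the fold threshold that without replicate 1 at 14 °C (0.91), replicate 2 at 25 °C (0.98) or replicate 3 at 25 °C (0.93) it was not called. It was also not called with slide as a block (0.90), with slide as a random block (0.96) or from its brightest probe (0.85). The calcium-binding protein gene smp-30 had a log2 change of 0.44 and no call.

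Whether the response at 14 °C was complete or went further in deeper cold was tested directly between 11 and 14 °C. In this test 144 of 15114 features (0.953%) were higher and 184 (1.22%) lower at 11 °C, which is 2.17% in either direction. Of the 487 RefSeq genes that rose at 14 °C, 49 were higher still at 11 °C, 3 were lower and 435 had no call, and of the 512 that fell, 56 were lower still, 2 were higher and 454 had no call. Both comparisons use the arrays at 14 °C. The number of called features with a further call was 163, and it was 77, 56 and 73 without replicate 1, 2 or 3 at 14 °C. A missing call does not show equal levels.

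Replication genes were among those with a further fall. Mean log2 signals of Prim1 were 11.30 at 25 °C, 9.27 at 14 °C and 7.24 at 11 °C, with a direct difference of -2.03 (adjusted p = 0.0012), and those of Mcm7 were 9.76, 7.89 and 6.38 (-1.50, adjusted p = 0.00151). CG31075, CG34315 and topi, a gene of spermatocyte transcription, fell further by 1.75, 1.67 and 1.88. Among the rises, tobi had a mean of 2.11 at 25 °C, 3.99 at 14 °C and 6.15 at 11 °C (direct difference 2.17, adjusted p = 0.000735), and FASN2 had 3.31, 6.09 and 7.91 (1.82, adjusted p = 0.00233). Further rises at 11 °C were those of the potassium channel gene Elk (2.09), which was well above background on 1 array at 14 °C, Drsl2 (1.95), CG15239 (1.94) and CG30054 (1.85).

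Lip4 was close at both cool temperatures, with means of 11.76 at 14 °C and 11.35 at 11 °C (-0.41, adjusted p = 0.107), and so was betaTub97EF, with 14.49 and 14.16 (-0.33, adjusted p = 0.329). For a few genes 14 °C was an extreme. ClC-a and HDAC11 rose at 14 °C and were lower at 11 °C by 2.01 and 1.62 (adjusted p = 0.000616 and 0.000735). CG12896 and Hsp67Bc fell at 14 °C and were higher at 11 °C by 1.21 and 1.07 (adjusted p = 0.00188 and 0.00875).

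For the same genes, values at 30 °C against the shared arrays at 25 °C stand side by side with those at 14 °C. Of all features, 630 (4.17%) were called higher at 30 °C and 512 (3.39%) lower, 7.56% in all. The gene betaTub97EF changed by 1.64 at 14 °C and by -3.73 at 30 °C, Lip4 by 4.01 and -3.17, and pst by 1.02 and -2.69. Cyp4d2 changed by -1.97 and 3.02. Hsp23 had -4.38 and 3.1, of which the value at 30 °C was not called (adjusted p = 0.0139). The log2 differences of Mcm7 were -1.88 and 0.08, and those of Sld5 -1.84 and -0.11, and neither gene was called at 30 °C. Speck had the same mean at 25 and 30 °C, 6.76, and FASN2 was higher on both sides (2.78 at 14 °C and 1.69 at 30 °C).

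**Figure D5:**
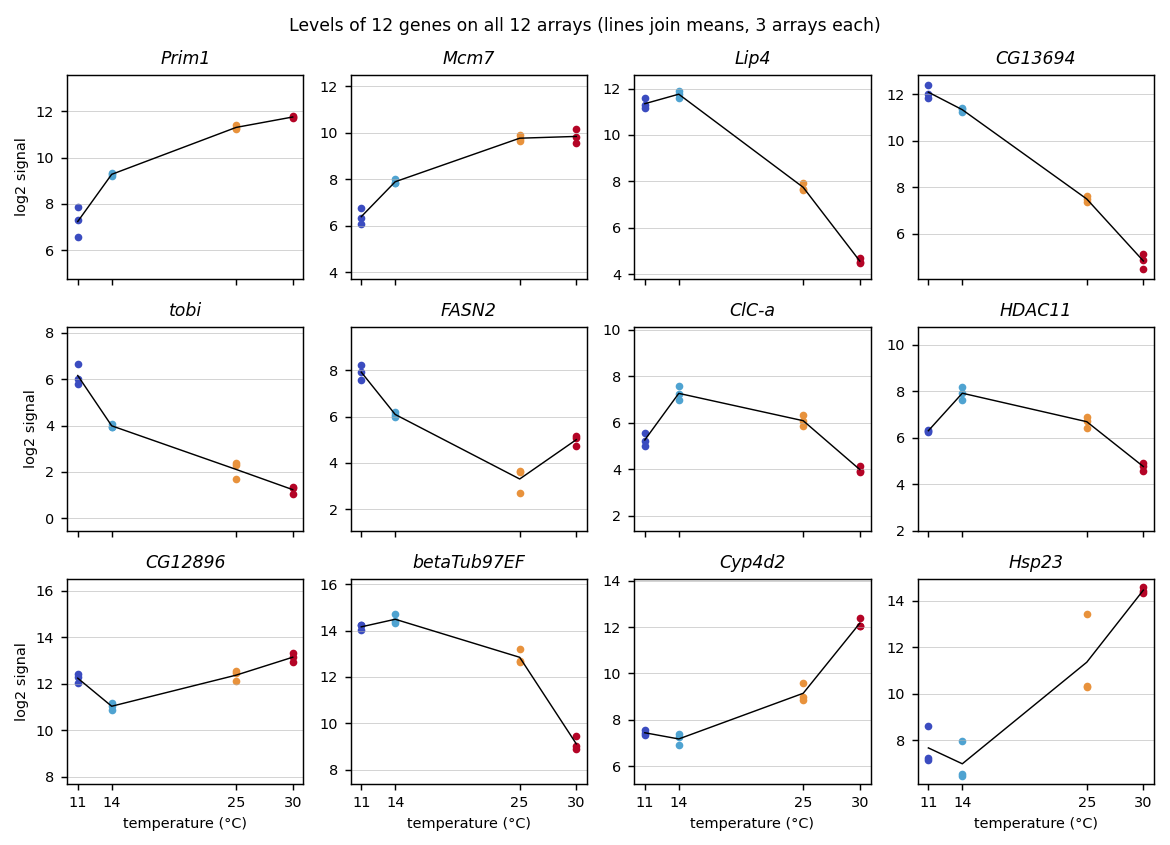
Log2 processed signal (y axis, the same span in each panel) of 12 genes at 11, 14, 25 and 30 °C (x axis), with the 3 arrays of a temperature as points and lines through their means. Prim1 and Mcm7 fall stepwise below 25 °C, Lip4 and betaTub97EF are highest at the cool temperatures and lowest at 30 °C, and CG12896 is lowest and ClC-a highest at 14 °C.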

How the data were processed

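Transcript levels in S2R+ cells were measured with 1-colour Agilent arrays, 3 each at 11, 14, 25 and 30 °C. The authors quantified them with Feature Extraction 10.7.3.1 and deposited scanner files with the processed signal, a background-subtracted intensity on a linear scale, and a log2 value table. The deposited log2 values were the log2 processed signal shifted by a constant on each array (at least 99.9% of 31676 probes within 0.01) and served as an alternative. The build of the array design is not given in the sources used here, so no coordinates are given.

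Control spots and outlier spots were left out, and spots of a probe were averaged on the log2 scale. Arrays were scaled to equal medians over the gene probes, with the 25 °C arrays as the target. A probe entered when 50% or more of its spots passed the background flag on 2 or 3 arrays of the same temperature, any of the 4, and 10 or more arrays had a value. Of 32162 probes, 19488 matched 13059 genes of a RefSeq table (60.6%), and other features kept the array's identifier. Probes of a gene were averaged. A mean per temperature was fitted to all 12 arrays with limma 3.58.1 (lmFit, eBayes) in R 4.3.3, and the contrasts 14 minus 25 °C, 11 minus 14 °C and 30 minus 25 °C were taken from it. Calls needed a 2-fold change and an adjusted p (Benjamini-Hochberg) under 0.01. Adjusted p values of genes come from this fit unless a setting is named. The fitting code was tested on simulated data.

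Folds are lower bounds for genes that failed the background flag on all arrays of a temperature or lay under the floor there, the floor being the signal of an array's dimmest spot well above background. For them, values of the dimmer temperature were raised to their array's floor before the means were compared. Signals of different genes do not give their relative abundance, since probes differ in response.

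The named genes were the 15 largest rises and 15 largest falls among called RefSeq genes detected on all 6 arrays, the 5 largest bounds each way among genes measured at 1 temperature only, called members of each gene list (up to 5), the 5 largest each way with a further call at 11 °C, pst, betaTub97EF and Hsp23, with defining list members whether or not called. Members and lists were chosen with earlier results of these data known, and lists have counts and medians without a test. Same-numbered replicates deviated together (correlations of deviations of 0.446, 0.165 and 0.188 for numbers 1, 2 and 3), a pairing found from the data. The main fit did not use this pairing, and the replicate number entered only as a block in an alternative. Other scalings, background correction, filters, slide and replicate blocks and leaving out each array were tried as alternatives. The normexp correction used the median signal of spots and was followed by quantile normalization in place of median scaling. The number of arrays limits the precision. Promoter sequences were not used here.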

Additional observations from a re-analysis of the deposited data

How the results depend on the processing

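Of the counts at 14 against 25 °C, the number of features called higher (805) was 1403 after scaling on spike-in controls, 150 after the normexp background correction, 493 among probes with a signal over 100, 342 under limma's treat against a fold of 1.5 and 1771 at an adjusted p under 0.05 without a fold threshold. The number called lower (749) was 395 after scaling on the 75th percentile, 400 after scaling on probes detected on every array, 209 on spike-in controls, 118 after normexp, 253 under treat and 3524 at an adjusted p under 0.05. Leaving out single arrays gave 634 to 943 higher and 610 to 792 lower. With the replicate number as a block the counts were 837 and 799, and 1519 of the 1554 calls remained in the same direction. Among the 142 named genes the block took the call of CecA1 and Hr38 only.

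The number of called features with a further call at 11 °C (163) was 175 with the replicate block, 88 on spike-in controls, 20 after normexp, 90 without a filter on dim probes and 1043 at an adjusted p under 0.05. It was 56 to 191 without single arrays and 0 under limma's treat, where 142 of the 595 features that treat called at 14 °C had an unadjusted p under 0.05 for 11 against 14 °C.

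Of the 142 named genes, 35 kept their call in every alternative and a further 34 lost it only after normexp, whose added offset shrinks changes of dim probes and which took 91 calls in all. That alternative also included quantile normalization, which by itself took 17, so the effects of its steps were not separated. Treat took 62, spike-in scaling 36, slide as a block 18 and a fit of the 6 arrays at 14 and 25 °C alone 17. Scaling on the 75th percentile took 16, all of them falls. Of the losses not given beside a gene described here, slide as a block took CG31689, CG5321, ClC-a, Damm, RyR, Agpat2 and arg, and the fit of the 6 arrays alone took Agpat2, CecA1, Dark, Fas3, RyR, aos, arg and bgcn. The brightest probe of ewg reversed its direction (-0.33), and no other named gene reversed in any alternative. The cause of these shifts was not tested. Signal over background limits the dim side of large changes, where folds are bounds, and for replicates 2 and 3 slide and temperature cannot be told apart.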

Other observations

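Further gene groups are given with their calls, beside 10.3% of all features called in either direction. Of the study's lists, amino acid catabolism had 2 rises (CG3999 and Tat) and 3 falls (CG31075, 3.12-fold, CG17896, 2.16-fold, and the arginase gene arg, 2.04-fold) among 22 genes, with a median log2 change of -0.33 (-0.14 relative to all features). Beta oxidation had 1 rise, CG5321 (at least 1.46-fold), and 1 fall, CG3902 (2.57-fold), among 18 genes, and the peroxisome had 2 falls, CG4860 (2.39-fold) and Pex2 (2.00-fold), among 23 genes. The calls of arg (-0.80 without replicate 2 at 14 °C), CG17896 (adjusted p = 0.00226 but under 2-fold without replicate 1 at 25 °C) and Pex2 (-0.94 without replicate 1 at 25 °C) were lost without single arrays. None of 18 autophagy genes (median -0.15, or 0.04 relative to all features), 18 genes of the JNK pathway and its targets (-0.01, or 0.18), 9 clock genes (0.16, or 0.34) and 16 genes of lysosomal hydrolases and membrane proteins (-0.39, or -0.20) was called, and 7, 4, 2 and 12 of them had an unadjusted p under 0.05 in the limma fit. The medians of amino acid catabolism, autophagy, the JNK group and the lysosomal group turned positive under other scalings.

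Markers of other cell types had scattered calls. Of 9 tested neuronal markers, futsch was called higher and no other was called. The call of futsch was lost in a fit of the 6 arrays alone (1.23, adjusted p = 0.0327) and with slide as a block (1.48, adjusted p = 0.0254). It was also lost without any of the 3 arrays at 14 °C (1.06, 1.28 and 1.35) and without replicate 1 (1.16) or 2 (0.96) at 25 °C. Mlc2, a muscle myosin light chain gene, was at least 2.74-fold higher at 14 °C (7.11, 6.98 and 7.40 against 5.50, 5.38 and 5.35), and no other of 8 tested muscle markers was called. Of 8 germ line markers, bgcn fell 2.39-fold, while piwi was called lower but was well above background on no array of either temperature, so that no fold is given, and vas (-0.07) and aub (0.01) had no call. The call of bgcn was lost without replicate 1 at 25 °C (-0.99).

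The 5934 features without a match in the RefSeq table held 318 rises and 237 falls, and several of them can belong to the same gene.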
